A study of Mus musculus with 6 samples.

Results

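Cytoplasmic ribosomal protein genes were taken as every row of the deposited gene count table whose symbol follows the standard names of these genes (Rpl or Rps with a number and an optional short suffix, Rplp0, Rplp1, Rplp2 or Rpsa), which gave 86 of 26971 rows. Of these, 35 carry a small-subunit name (Rps) and 51 a large-subunit name (Rpl). The GENCODE annotation of GRCm38 lists 81 of the 86 as protein-coding and 5 as pseudogenes (Rpl32l, Rpl6l, Rps3a2, Rps3a3 and Rps4l). The study sequenced polyadenylated RNA from kidney cortex of male C57BL/6 mice, 1 day after surgery. One group of 3 libraries had ischaemia-reperfusion injury (IRI), in which the blood supply is stopped and restored. The titles of these libraries begin with CLK_IRI, and CLK is not spelled out in them. The other group of 3 had IRI together with renal congestion, a backing up of venous blood, and its treatment label is IRI with IVCC. All 6 libraries therefore came from cortex with IRI, no engineered allele is named for either group, and the ages are not given in the labels. The labels number the libraries 1 to 3 in each group and do not state whether different animals gave them, so a p-value here speaks only of variation among 6 libraries that may be technical. The comparison asks how added congestion altered the injured cortex.

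Each ribosome is built from ribosomal RNA and one copy of nearly every ribosomal protein, so cells make the proteins of both subunits in matched amounts. Their mRNAs are short and abundant, and they begin with a run of pyrimidines, the 5′ terminal oligopyrimidine (TOP) tract, through which mTORC1 and the RNA-binding protein LARP1 control their translation and stability. Ribosomal protein genes also have many processed pseudogenes, which makes short reads from them hard to place.

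Windows at the RefSeq start sites of 5 genes are printed here to look for that tract. These genes differ most in their behaviour or form a parent and paralogue pair. Each window holds 30 bases of GRCm38.p6, 15 before and 15 from the annotated start, read 5′ to 3′ on the gene's strand. Capitals mark a C followed by at least 4 C or T that begins within 5 bases of the start. Rpl38 (chr11:114668565-114668594, plus strand) and Rps28 (chr17:33824548-33824577, minus strand) had the lowest log2 fold changes with congestion, and Rpl15 (chr14:18270972-18271001, minus strand) had the highest of the protein-coding members. Rps27 (chr3:90213634-90213663, minus strand) and Rps27l (chr9:66946071-66946100, plus strand) are a parent gene and its paralogue.
Rpl38: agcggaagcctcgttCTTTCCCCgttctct
Rps28: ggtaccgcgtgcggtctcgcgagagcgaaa
Rpl15: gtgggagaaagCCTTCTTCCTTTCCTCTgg
Rps27: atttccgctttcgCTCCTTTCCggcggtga
Rps27l: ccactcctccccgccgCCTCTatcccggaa
The Rpl15 tract runs for 17 bases, that of Rps27 for 9 and that of Rpl38 for 8, and the window of Rps28 holds none by this definition. RefSeq promoter windows were matched for 61 of the 81 protein-coding members, and 27 of the 61 (44.3%) held a tract, against 19.9% of 14586 promoters of all genes. The letters CCGGAAG, the core bound by ETS-family factors, stood on either strand of the 300-base window in 24 of 61 (39.3%), against 14.3% of all promoters. The letters ATGGCGGC, the core bound by YY1, were in 6.56% of the members' windows and in 3.93% of all, and the letters TATAAA in 9.84% and 9.26%. The median log2 fold change with congestion was -0.56 over the 27 tested members with a tract and -0.59 over the 33 tested members without one. In 45 of the 61 matched windows, a start annotated for the gene lay within 50 bases of the window's start site. For Rps25 the distance was 575 bases. An annotated start that is off by a few bases hides a tract, so these counts describe the annotation.

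Together the ribosomal protein genes took 4.83%, 3.27% and 1.71% of all counts in the IRI libraries, in the order of their numbers. The congested libraries gave 3.30%, 1.99% and 2.16% in the same order. The range was 2.83-fold from the highest to the lowest library, and both extremes were IRI libraries, with all congested values between them. The means were 3.27% ± 1.56 (SD, n = 3) in IRI and 2.48% ± 0.711 (SD, n = 3) in congested libraries, a difference of -0.787 percentage points that is smaller than the spread within the IRI group. The widest 95% Wilson interval of these shares was 0.0222 percentage points, which covers counting error only, so depth does not limit them. Without IRI replicate 1 the difference of means was -0.0054 percentage points, and without IRI replicate 3 it was -1.57. In bulk tissue, fewer cells of a type and less RNA per cell cannot be told apart. No test of the summed share was made.

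**Figure D1:**
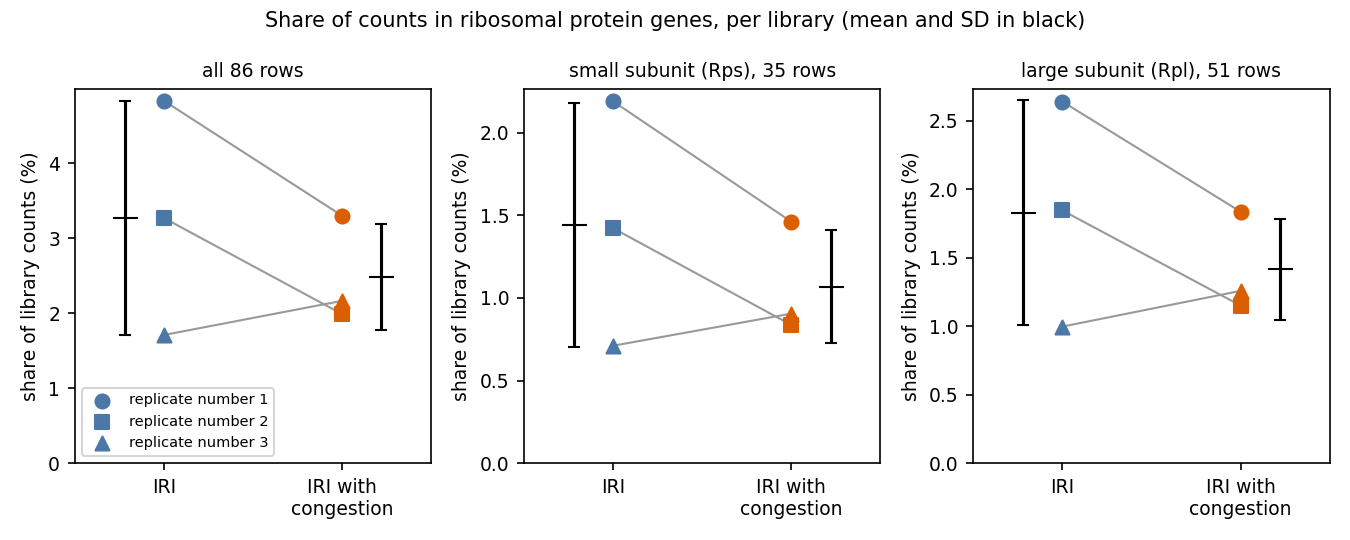
Share of each library's counts in all 86 ribosomal protein rows, in the 35 small-subunit rows and in the 51 large-subunit rows (percent, y axis) for IRI and congested libraries (x axis), with grey lines joining equal replicate numbers and black bars giving mean and SD. IRI replicate 1 (4.83%) and IRI replicate 3 (1.71%) lie at the ends of the range in the first panel, and the line of replicate number 3 is the one that slopes up.

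In both subunits the highest and the lowest libraries were IRI replicates 1 and 3. Small-subunit genes took 2.19%, 1.42% and 0.711% of IRI counts and 1.46%, 0.836% and 0.905% of congested counts. Large-subunit genes took 2.64%, 1.85% and 0.998% in IRI and 1.84%, 1.15% and 1.26% in congested libraries. The small-to-large ratio of counts stayed between 0.713 and 0.829, and its means of 0.771 ± 0.0583 in IRI and 0.747 ± 0.0421 in congested libraries (SD, n = 3) differed by less than the spread within a group. The ratio was highest where the summed share was highest, in IRI replicate 1 (0.829), and lowest in IRI replicate 3 (0.713). The 198 rows named as ribosomal protein pseudogenes took 0.0111% to 0.0341% of counts.

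Library totals were 10865860 to 14350425 counts, and the libraries numbered 1 stood apart in both groups. The summed level of the 3 proximal tubule markers Lrp2, Slc34a1 and Slc5a2 was 1387 and 1151 CPM (counts scaled to library size with TMM factors) in IRI and congested replicate 1, against 3853 to 4371 in the other 4 libraries. The tubule gene Umod was also detected in every library. Injury markers ran the other way. Havcr1, which encodes KIM-1, was at 2479 and 2122 CPM in the replicates 1 and at 889 to 1063 elsewhere, and Lcn2 at 1210 and 856 CPM against 84.8 to 213. The 3 neutrophil markers summed to 62.6 and 187 CPM in the replicates 1 and to 3.97 to 12.7 in the others. The 4 macrophage markers summed to 46.5 to 78.8 CPM in IRI and 58.7 to 246 in congested libraries. The 246 CPM was congested replicate 1, where Lyz2 alone was at 197, and the ranges of Adgre1, Csf1r and Cd68 overlapped between the groups. In the same order of groups, the 3 endothelial markers spanned 78.2 to 110 and 120 to 128 CPM. The 3 erythroid markers spanned 59.9 to 144 and 77.4 to 111 CPM. The 3 lymphocyte markers reached at most 0.659 CPM, with Cd3e at 0 in 4 libraries. Ribosomal protein levels were also highest in IRI replicate 1, and the part of injury or cell makeup in that was not tested.

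In the comparison of congested with IRI libraries, 84 of the 86 ribosomal protein genes passed the filter on low counts. None was called at an adjusted p under 0.05 by edgeR's quasi-likelihood test, and neither was any other of the 14274 genes tested (background 0%). The smallest adjusted p of a member was 0.933 with edgeR. At an unadjusted p under 0.05, edgeR found 0 members lower and DESeq2 found 2, where the background of genes lower at that level was 1.01% and 1.36%. Limma-voom and DESeq2 also called 0 members. The log2 fold changes, congested minus IRI, were nonetheless below 0 in 82 of 84 members, against 50.4% of all genes tested. Their median was -0.55, their quartiles -0.64 and -0.45 and their range -0.999 (Rps28) to 0.13 (Rps3a3), while the median of all genes was -0.005. Small-subunit genes had a median of -0.59 (n = 35) and large-subunit genes one of -0.52 (n = 49). No member had groups that did not overlap, where 3.07% of all genes were lower in every congested than in every IRI library.

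The size of this lean depended on single libraries. Without IRI replicate 1 the members' median was -0.04, and 50 of 84 were below 0 against 48.8% of all genes. Without IRI replicate 3 the median was -0.91, all 84 were below 0, and 41 were lower at an unadjusted p under 0.05 in edgeR (background 8.74%), none of them at an adjusted p under 0.05. Without congested replicate 1 the median was -0.87. With number 1 left out of both groups it was -0.34, and 80 of 83 tested members were below 0.

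**Figure D2:**
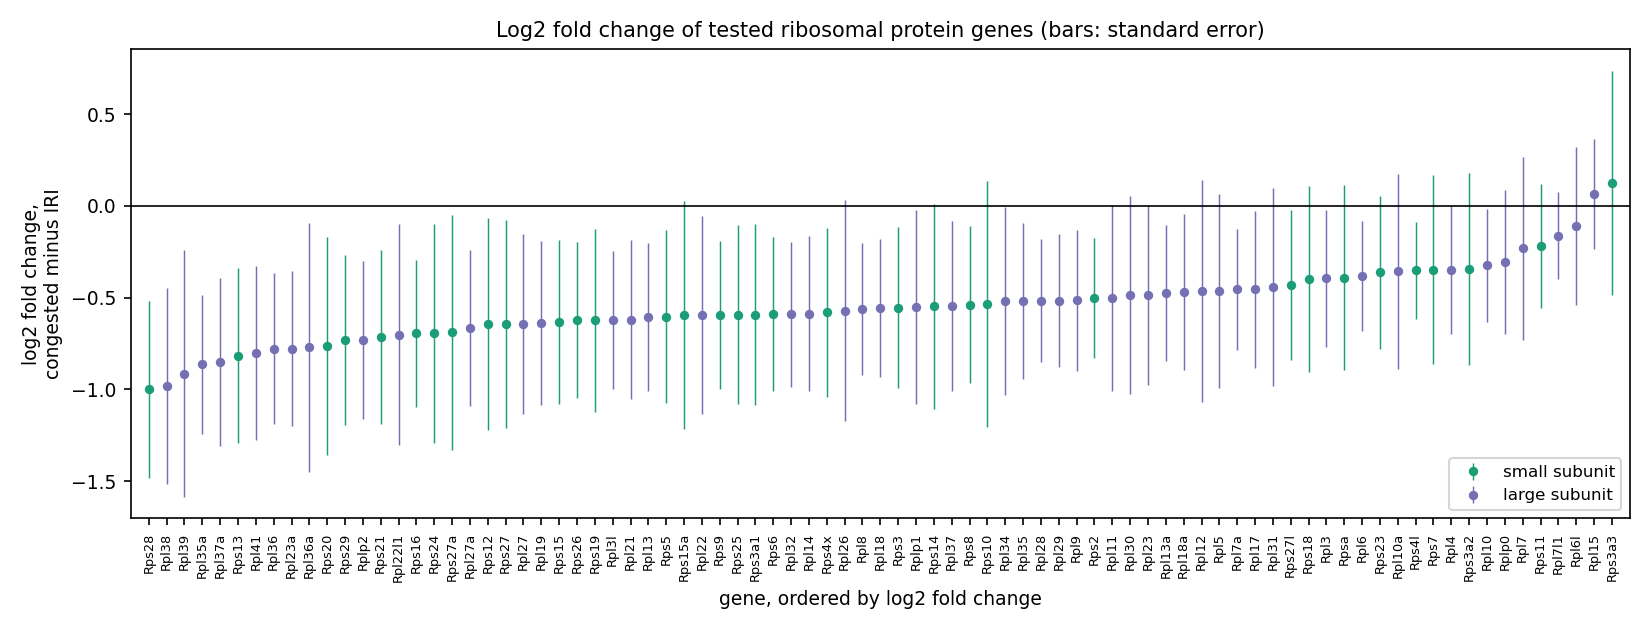
Log2 fold change, congested minus IRI, of 83 of the 84 tested ribosomal protein genes (x axis, in order of value), with bars of 1 standard error from edgeR's quasi-likelihood fit and colours for the subunits. Points run from -0.999 (Rps28) to 0.13 (Rps3a3), small-subunit and large-subunit genes are mixed along the order, and Rpl15 and Rps3a3 lie above 0.

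Within equal replicate numbers the members moved together but not in 1 direction. The median difference in log2 CPM, congested minus IRI, was -0.79 for replicate number 1, -0.85 for number 2 and 0.31 for number 3. The difference was below 0 in 81, 84 and 3 of the 84 members. Thus 79 of 84 (94.0%) were lower with congestion in numbers 1 and 2 and higher in number 3, a pattern that 25.1% of all genes had. Only Rpl35 and Rps3a2, 2 of 84, were lower in all 3 numbers, against 13.1% of all genes. A replicate block in edgeR gave 0 called members (background 0%). Rpl35a, Rpl23a, Rps28 and Rpl35 reached an unadjusted p under 0.05, a level at which 2.98% of all genes were lower, and the smallest adjusted p of a member was 0.577 with edgeR. DESeq2 with the block put 16 members lower at that level (background 3.09%) and called 8 genes (0.056% of those tested), none of them a member.

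**Figure D3:**
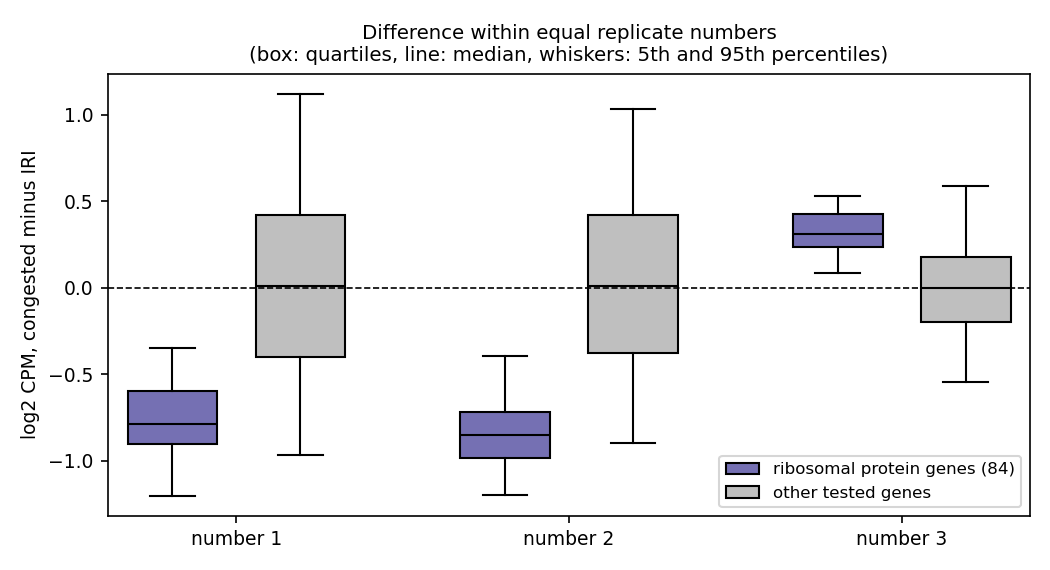
Difference in log2 CPM, congested minus IRI, within replicate numbers 1, 2 and 3 (x axis) for the 84 tested ribosomal protein genes and for the other tested genes, as boxes of quartiles with the median and whiskers from the 5th to the 95th percentile. The members' boxes lie below 0 for numbers 1 and 2 (medians -0.79 and -0.85) and above 0 for number 3 (0.31), while the other genes centre near 0 each time.

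The 5 members with the smallest p in the downward direction all encode short, basic proteins, and none was called. Rps28, which encodes a small-subunit protein (ENSMUSG00000067288, chromosome 17, 33819027 to 33824562, minus strand), was at 173, 115 and 39.2 CPM in IRI and at 65.0, 48.5 and 49.98 CPM in congested libraries, here and below in the order of replicate numbers. IRI replicate 3 was the lowest of the 6, so the groups overlapped. The log2 fold change of Rps28 was -0.999 ± 0.48 (SE, edgeR adjusted p = 0.933). Rpl38, a large-subunit gene whose loss in mice disturbs the patterning of the skeleton (chromosome 11, 114668524 to 114672331, plus strand), was at 302, 175 and 60.03 CPM in IRI and at 121, 73.3 and 77.8 CPM in congested libraries. Its log2 fold change was -0.98 ± 0.53 (SE), with the same low value in IRI replicate 3. Rpl35a, which is mutated in some patients with Diamond-Blackfan anaemia, was at 361, 252 and 125 CPM in IRI and at 157, 119 and 130 CPM in congested libraries. The overlap of the Rpl35a groups was narrow, as only IRI replicate 3 fell within the congested values. Its log2 fold change was -0.86 ± 0.38 (SE). For Rpl37a the values were 456, 278 and 117 CPM in IRI and 192, 136 and 144 CPM in congested libraries. Rpl36 was at 260, 210 and 79.4 CPM in IRI and at 115, 90.5 and 115 CPM in congested libraries. Both are large-subunit genes, and in both the lowest library was IRI replicate 3.

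At the other end stood Rpl15 and the pseudogene Rps3a3. Rpl15, a large-subunit gene on chromosome 14 (18267823 to 18271391, minus strand), was at 232, 158 and 138 CPM in IRI and at 245, 154 and 153 CPM in congested libraries. Its highest library was congested replicate 1, where 79 of the 84 tested members had their highest value in IRI replicate 1. The log2 fold change of Rpl15 was 0.06 ± 0.30 (SE), and Rpl15 varied only 1.77-fold across the 6 libraries. Rps3a3 was at 0.618 to 1.67 CPM in IRI and 0.706 to 2.24 CPM in congested libraries, and shares 65.1% of its 50-base words with other genes.

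The 3 proteins of the ribosomal stalk recruit elongation factors to the large subunit. Rplp0, the base of the stalk, was at 1352, 953 and 556 CPM in IRI and at 1063, 595 and 658 CPM in congested libraries, with a log2 fold change of -0.31. Rplp1 was at 1329, 789 and 320 CPM in IRI and 829, 402 and 434 CPM in congested libraries (-0.55). Rplp2 was at 576, 390 and 165 CPM in IRI and 272, 198 and 212 CPM in congested libraries (-0.73). All 3 were highest in IRI replicate 1 and lowest in IRI replicate 3. Rplp1 counts relative to Rplp0 were 98.3%, 82.8% and 57.6% in IRI and 78.04%, 67.6% and 65.9% in congested libraries, so the partners did not vary by the same factor. The Rplp2 to Rplp0 percentage was 42.6, 40.9 and 29.7 in IRI and 25.6, 33.4 and 32.2 in congested libraries. Transcript lengths differ, so these percentages do not compare the 2 genes' levels. The length trend described below can also shift them between libraries, and its part was not tested. With the length and GC trend removed, the log2 fold changes were -0.04 for Rplp0, -0.02 for Rplp1 and -0.34 for Rplp2.

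Among the highest members per kilobase of transcript were Rplp1 with a mean of 1371 CPM per kilobase, Rps12 with 1095 and Rps14 with 1050. Rps15 (997), Rpl41 (992), Rps27a (981), Rpl26 (974), Rpl7 (966) and Rpl22 (752) were also among the 5 highest of their subunit. Rps14 haploinsufficiency is known from a human anaemia with a chromosome deletion, Rps27a encodes ubiquitin fused to a small-subunit protein, and Rpl41 encodes the shortest ribosomal protein. Rps27a ranged widely, at 1416, 633 and 264 CPM in IRI and 807, 313 and 316 CPM in congested libraries. Rps12 was at 1080, 531 and 232 CPM in IRI and 623, 285 and 271 CPM in congested libraries. Rpl7 was at 1404, 777 and 442 CPM in IRI and 1173, 517 and 544 CPM in congested libraries. In these 3 genes, IRI replicate 1 was highest, congested replicate 1 second and IRI replicate 3 lowest. The log2 fold changes of the genes named here ran from -0.80 (Rpl41) to -0.23 (Rpl7), and none was called.

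Across the 6 libraries, 81 members varied at least 2-fold, with a median of 3.45-fold between the highest and the lowest library. Of the 84 tested, 79 were highest in IRI replicate 1 and 76 lowest in IRI replicate 3. The widest ranges belonged to Rpl39 (7.10-fold), Rps10 (6.61), Rpl36a (6.42), Rpl22l1 (5.80) and Rps27a (5.36). The narrowest belonged to Rpl7l1 (1.59-fold), Rpl15 (1.77), Rps4l (1.80) and Rpl10 (2.06). Rpl39, which encodes a very short protein of the large subunit's exit tunnel, was at 621, 279 and 87.4 CPM in IRI and 280, 121 and 122 CPM in congested libraries. Relative to each gene's mean over the libraries, the members' median log2 CPM was 1.04, 0.33 and -0.73 in IRI and 0.26, -0.51 and -0.42 in congested libraries.

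Differences between replicate numbers, tested by edgeR with group as a second term, were called for 14 of 84 members (16.7%) against a background of 8.01% of all genes. All 14 were lower in numbers 2 and 3 than in number 1. They were Rps15a, Rps24, Rps27a, Rps12 and Rps7 of the small subunit and Rpl12, Rpl36a, Rpl5, Rpl35, Rpl7, Rpl22l1, Rpl34, Rpl23 and Rpl10a of the large one. Rpl5 is a member that, when free of the ribosome, binds the p53 regulator MDM2. Rps15a had the smallest adjusted p (0.0261 with edgeR), with log2 differences of -1.27 for number 2 and -1.78 for number 3 against number 1. Rps24 followed with -1.12 and -1.74, and was at 1730, 846 and 372 CPM in IRI and 996, 428 and 399 CPM in congested libraries. Over all tested members the median log2 difference from number 1 was -0.72 for number 2 and -1.15 for number 3, against 0.00 and 0.01 over all genes. The labels do not say what a replicate number stands for.

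As counted, the paralogues did not all vary like their parents. Rps27l, a p53-responsive paralogue of Rps27, was at 373, 224 and 136 CPM in IRI and 254, 144 and 146 CPM in congested libraries. Rps27 was at 607, 342 and 128 CPM in IRI and 354, 152 and 184 CPM in congested libraries. Their log2 fold changes with congestion were -0.43 and -0.64. With the length and GC trend described below removed, they were -0.06 for Rps27l and -0.08 for Rps27. Counts of Rps27l relative to Rps27 thus ran from 61.4% in IRI replicate 1 to 106% in IRI replicate 3, and group means of 77.6% ± 24.6 and 81.8% ± 11.7 (SD, n = 3) differed by less than that spread. Nearly all 50-base words of Rps27 (98.6%) occur in other genes, Rps27rt first among them.

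Rpl22l1, whose mRNA the RPL22 protein is known to repress, was at 98.3, 45.5 and 17.0 CPM in IRI and 50.3, 25.5 and 23.2 CPM in congested libraries, 9.75% to 13.6% of Rpl22. The ratio of this pair was steadier across libraries than that of Rps27l to Rps27. Rpl7l1, a nucleolar relative of Rpl7, was at 147, 114 and 92.1 CPM in IRI and 121, 95.3 and 99.4 CPM in congested libraries. Its counts were 10.4%, 14.7% and 20.8% of those of Rpl7 in IRI and 10.3%, 18.4% and 18.3% in congested libraries, lowest in both replicates 1. The annotated main transcripts are 2606 bases for Rpl7l1 and 838 for Rpl7. The part of the length trend in this ratio was not tested. With that trend removed, the log2 fold changes were -0.17 for Rpl7l1 and 0.15 for Rpl7. Rpl3l, a paralogue of Rpl3 known from heart and skeletal muscle, was at 2.47 to 4.27 CPM in IRI and 1.71 to 2.98 CPM in congested libraries, with a log2 fold change of -0.62. Its parent Rpl3 was at 403 to 1036 CPM in IRI and 459 to 674 CPM in congested libraries. Rps4l, listed as a pseudogene, was at 12.98 to 20.1 CPM in IRI and 11.2 to 16.8 CPM in congested libraries, where Rps4x was at 315 to 1148 and 393 to 605 CPM. The pseudogene Rpl6l was at 1.15 to 2.13 CPM in IRI and 0.942 to 1.97 CPM in congested libraries, against 256 to 531 and 279 to 334 CPM for Rpl6.

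A few members were counted far below the rest. Of the 86, 73 had a mean of at least 100 CPM. Rpl24, a core large-subunit gene, had counts of 2, 3 and 2 in IRI and 3, 2 and 5 in congested libraries and was not tested. Its exons share 47.0% of their bases on the same strand with Gm28037, and 81.7% of its 50-base words occur in other genes. Rpl32l, the other untested member, had counts of 13, 7 and 4 in IRI and 3, 3 and 9 in congested libraries. Rps10 was at 3.5, 1.37 and 0.530 CPM in IRI and 1.80, 1.10 and 0.863 CPM in congested libraries, and 20.6% of its exon bases lie in the readthrough gene RPS10-NUDT3. How the counting treated overlapping genes and reads with several matches is not given in the sources available, and whether these low counts reflect low mRNA was not tested. Of the 86 members, 84 share at least one 50-base word with another annotated gene. The log2 fold change with congestion had a median of -0.56 over the 11 members sharing under 20% of their words and of -0.53 over the 36 tested members sharing 60% or more.

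Ribosomal protein mRNAs are short, and log2 fold changes in this comparison differed with transcript length among genes of all kinds. The median length was 786 bases for the tested members and 2788 bases for all tested genes with a length. Among other genes the median log2 fold change was -0.58 up to 500 bases (n = 237), -0.41 above that and up to 1000 (n = 959), -0.22 up to 2000 (n = 3135), 0.01 up to 4000 (n = 5531) and 0.23 above 4000 (n = 3934). Members in the same classes had medians of -0.68 (n = 14), -0.54 (n = 49), -0.54 (n = 18) and -0.46 (n = 3), with none above 4000 bases. Other genes whose mean reached 100 CPM, a level more like that of the members, had medians of -0.72 (n = 12), -0.49 (n = 151) and -0.29 (n = 477) in the first 3 classes. Short members thus lay close to other abundant short genes. Members with an annotated main transcript above 1000 bases lay lower than other genes of that annotated length. This difference was not tested, nor was whether the mRNA of these members is as long as annotated. Across the 84 members, which share libraries and depth, Spearman's rho of length with log2 fold change was 0.41 and Pearson's r was 0.34. With the length and GC trend described next removed, the same values were -0.21 and -0.33.

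With a per-library trend in length and GC content, estimated on the other genes, removed from the counts, the members' median log2 fold change was -0.15, against -0.55 without this step and -0.03 over all genes with it. Below 0 were 72 of 84 members, against 55.5% of all genes, and edgeR called 0. Rpl15 (0.39) and Rpl7 (0.15) were then above 0. Rps28 (-0.42), Rpl38 (-0.38) and Rpl35a (-0.38) remained below 0. The lowest value, -1.05 for Rps20, rests on an annotated main transcript of 3706 bases, and the other values and the median also depend on annotated lengths. For the replicate numbers, edgeR then called 38 of 84 members (45.2%) against 16.4% of all genes, again all lower in numbers 2 and 3, with median log2 differences from number 1 of -0.56 and -0.79. The source of the length trend was not tested.

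**Figure D4:**
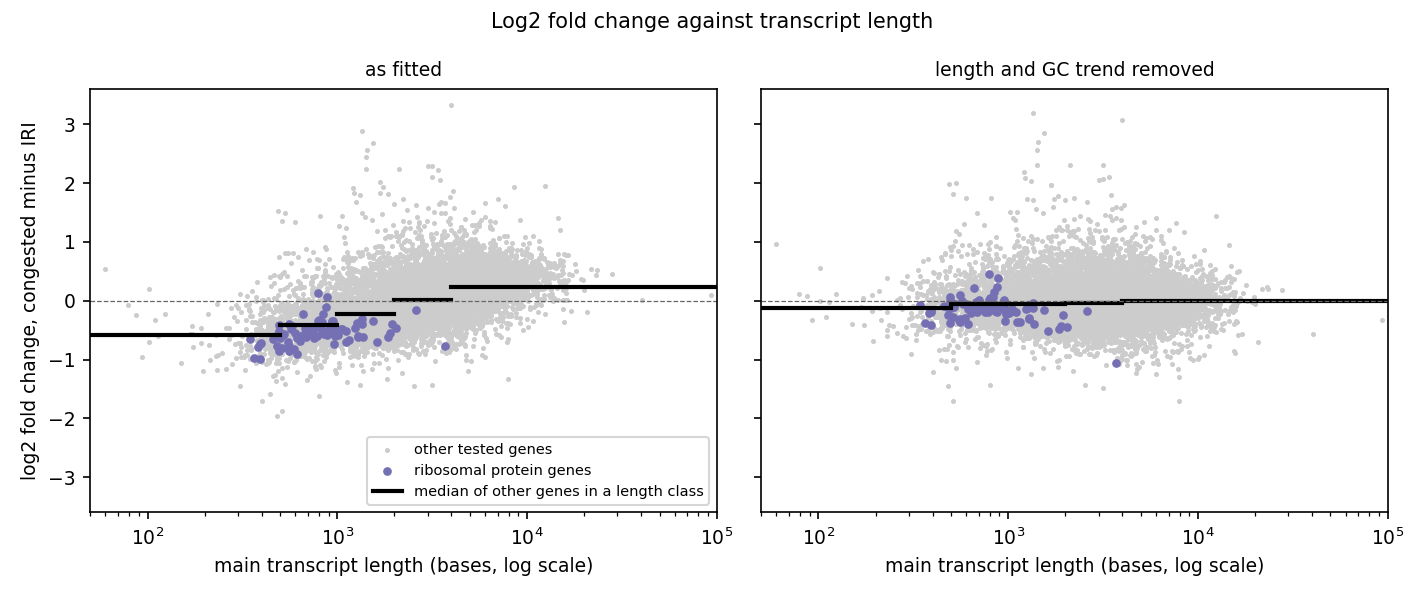
Log2 fold change, congested minus IRI, against main transcript length in bases (log scale) for the tested ribosomal protein genes and other tested genes, before (first panel) and after (second panel) removal of the per-library length and GC trend, with black lines for the median of other genes in each length class. The lines climb from -0.58 up to 500 bases to 0.23 above 4000 bases in the first panel and lie near 0 in the second, where the members have a median of -0.15.

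Genes of ribosomal proteins outside the naming rule were also below 0. Fau, which encodes a ubiquitin-like protein fused to a small-subunit protein, was at 330, 267 and 127 CPM in IRI and 153, 140 and 152 CPM in congested libraries, a log2 fold change of -0.70. Rack1, a signalling scaffold on the small subunit, was at 1290, 781 and 463 CPM in IRI and 925, 519 and 577 CPM in congested libraries (-0.33). With the length and GC trend removed, Fau was at -0.21 and Rack1 at -0.09, and without IRI replicate 1 Rack1 was at 0.12. Rpl36al was below the filter, with 4 to 17 counts.

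Mitochondrial ribosomal proteins, which build the separate ribosome of the mitochondrion, gave 77 tested genes. All 77 were below 0, with a median log2 fold change of -0.46, and 0 were called. Their summed share was 0.656%, 0.599% and 0.407% in IRI and 0.472%, 0.407% and 0.452% in congested libraries. The median within replicate numbers was -0.67, -0.66 and 0.13, and without IRI replicate 1 it was -0.19, where the cytoplasmic genes had -0.04. The groups did not overlap for 6 of the 77 (7.79%, against 3.07% of all genes), including Mrpl34 at 54.7 to 85.1 CPM in IRI and 41.1 to 48.4 CPM in congested libraries, and Mrps12 at 31.5 to 52.3 and 27.1 to 30.0 CPM. None of the 84 cytoplasmic members had that separation. With the length and GC trend removed, the mitochondrial median was -0.24. The log2 fold changes of Mrpl34 and Mrps12 were -0.68 and -0.65 before this step and -0.28 and -0.25 after it.

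The other lists of the translation machinery had 0 genes called in edgeR. Elongation factors and other TOP mRNAs were below 0 in 19 of 23, with a median log2 fold change of -0.36 that became 0.12 without IRI replicate 1. Eef1d, a subunit of the exchange factor for eEF1A, was at 222, 179 and 91.9 CPM in IRI and 115, 96.3 and 119 CPM in congested libraries, and Eif3f had a log2 fold change of -0.51. Initiation factors were below 0 in 28 of 33 (median -0.23), and without IRI replicate 1 in 17 of 33 (median -0.004), with Eif2b4 at -0.49 and Eif2b5 at -0.39, both subunits of the guanine nucleotide exchange factor eIF2B. Ribosome biogenesis factors were below 0 in 37 of 50 (median -0.22), but in 12 of 50 without IRI replicate 1 (median 0.08). Among them, Imp3 was at -0.67, while Mybbp1a was at 0.41 with 57.5 to 69.6 CPM in IRI and 78.2 to 84.9 CPM in congested libraries. RNA polymerase I genes, which transcribe ribosomal RNA, were below 0 in 8 of 15 (median -0.07) and in 4 of 15 without IRI replicate 1 (median 0.12), with the short-transcript subunit Polr1d at -0.63 and the largest subunit Polr1a at 0.27. Polr1a has a transcript of 9216 bases, and its value was -0.09 with the length and GC trend removed. The same step put Imp3 at -0.32, Polr1d at -0.32 and Mybbp1a at 0.25.

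Regulators of mTORC1 and LARP1 were below 0 in 16 of 30, with a median log2 fold change of -0.12. Rptor, the defining scaffold of mTORC1, was at 18.5, 23.3 and 33.5 CPM in IRI and 35.2, 33.7 and 39.3 CPM in congested libraries. Its log2 fold change was 0.52 (edgeR adjusted p = 0.933), and 0.30 with the length and GC trend removed. The Rptor groups narrowly failed to overlap, with IRI replicate 3 at 33.5 CPM and congested replicate 2 at 33.7 CPM. Higher values without overlap were seen in 2 of these 30 genes and in 488 of all 14274 tested. Lamtor2, part of the complex that holds mTORC1 at the lysosome, was at -0.61, and at -0.20 with that trend removed. The 20S proteasome core, another complex of fixed composition with short mRNAs, was below 0 in all 14 genes with a median of -0.45. Psmb4 was at -0.67 and Psma5 at -0.53, and with the trend removed they were at -0.36 and -0.24. The core's median was -0.11 with the trend removed and -0.04 without IRI replicate 1, close to the -0.15 and -0.04 of the ribosomal protein genes. Counts of the ribosomal RNA row Rn18s-rs5 were 3815, 5844 and 1813 CPM in IRI and 1579, 1598 and 1388 CPM in congested libraries, an order that differs from that of the ribosomal proteins, as IRI replicate 2 was highest. Because the library kit selects mRNA, this row need not measure ribosomal RNA.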

How the data were processed

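Total RNA from 6 kidney cortex samples was prepared with a stranded kit that selects mRNA, per the labels' protocols. The deposited table holds the authors' raw counts of reads per gene, made with STAR 2.7.10a, featureCounts, Subread and GRCm38 per the submitters' processing notes, which give no roles. Not given in the sources used here are the annotation, the strand setting and the treatment of reads with several matches. The 258 rows with an identifier in place of a symbol held 0.0272% of counts.

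The test was run in edgeR 4.0.16 (R 4.3.3, TMM factors, filterByExpr with minimum count 10 and minimum total 15, robust quasi-likelihood F test on group), and p-values were adjusted by Benjamini-Hochberg over all 14274 tested genes and called under 0.05. A standard error is the log2 fold change divided by the square root of F. Log2 CPM used a prior count of 2. Alternatives were other scaling factors and filters, DESeq2 1.42.0, limma-voom (limma 3.58.1), the replicate block, a length and GC trend per library (mgcv 1.9.3, basis 6) removed as an offset, and libraries left out. Limma-voom with the block and the subsets of members by biotype and by shared 50-base words were added after the data were seen. Lengths came from GENCODE vM21 (protein-coding transcript with the longest coding sequence) for 97.2% of tested genes. The fits were tested on simulated data.

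The members, the lists and the tests were chosen with earlier results of these data known. Named were the 5 members with the smallest p per direction, the 5 of each subunit with the highest mean CPM per kilobase, the stalk genes, paralogues with their parents, members whose groups do not overlap (0) and the 2 genes with the smallest p per related list. Some genes that this rule picks are not reported here. Members named for their range or low counts, and those called between replicate numbers, were chosen after their values were seen. Deviations from group means correlated across genes at 0.724, 0.342 and 0.429 for equal replicate numbers 1, 2 and 3, so the numbers were taken as pairs, although the labels do not say so. Unequal numbers 2 and 3 also correlated, at 0.401 (IRI 2 with congested 3) and 0.249 (IRI 3 with congested 2), so only number 1 stands out in the data. Same-group libraries differed by 18.8 to 193 chi-square units per degree of freedom, so none was counted as a repeat. The most alike pair lay across the groups, IRI 3 with congested 3 at 12.3 units.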

Additional observations from a re-analysis of the deposited data

How the results depend on the processing

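No ribosomal protein gene was called under any alternative, replicate block included. The members' median log2 fold change stayed below 0 in all of them, from -0.906 without IRI replicate 3 to -0.040 without IRI replicate 1, and was -0.439 with the replicate block in edgeR, -0.450 with it in DESeq2, -0.425 with it in limma-voom and -0.423 with total counts only, which put the median of all genes at 0.095. The block changed no call of a member. The difference in share ranged from -1.57 to -0.0054 percentage points as libraries were left out, and was -0.413 without replicate 1 in both groups. Members that differed between replicate numbers were 38 in place of 14 with the length and GC trend removed. The list outside the naming rule had a median of -0.147 with the trend removed, -0.129 with the trend removed and the replicate block, -0.981 without replicate 3 in both groups, and -0.945 to -0.140 as single libraries were left out. Elongation factors and TOP mRNAs ranged from -0.622 to 0.118 in the same way. Some genes changed sign, and the cause was not tested. With the trend removed, and with the trend removed and the block, Rpl7 was at 0.152 and 0.123, Rpl6l at 0.227 and 0.230 and Polr1a at -0.093 and -0.086. Limma-voom gave a log2 fold change of Rps3a3 of -0.00195, and leaving out replicate 2 in both groups put Rpl6l at 0.080. As single libraries were left out, log2 fold changes ranged from -0.201 to 0.320 for Rpl15, -0.623 to 0.561 for Rps3a3, -1.15 to 0.051 for Rps12, -1.04 to 0.059 for Rps14, -1.30 to 0.102 for Rps27a, -0.965 to 0.010 for Rplp1, -1.15 to 0.074 for Rpl26, -0.726 to 0.298 for Rpl7, -1.05 to 0.026 for Rpl22, -0.611 to 0.040 for Rplp0, -0.760 to 0.018 for Rps27l, -1.15 to 0.085 for Rpl22l1, -0.307 to 0.035 for Rpl7l1 and -0.345 to 0.139 for Rpl6l. The highest value came without IRI replicate 1 in each of these except Rpl6l, where it came without congested replicate 3. Low counts limit what can be said of Rpl24, Rpl32l and the other members with few counts, and the reason for those counts was not tested.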
